A study of Bos taurus with 6 samples.

Results

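The genes described here encode the enzymes and carriers that bring glucose into a cell, break it down by glycolysis, pass pyruvate on to lactate or to the mitochondrion, run the first steps back from pyruvate towards glucose, and build and degrade glycogen. They were chosen by symbol from a written list of 39 symbols, and 37 of these were present in the mRNA count table of 25444 genes, of which 17752 had a count. PGK1 and the symbol PKM were not analysed here. The symbol PKM2 in the table was taken as the older symbol of the pyruvate kinase M gene. If so, its count covers the whole gene and not the M2 splice form alone. The expression of these 37 genes was compared between intramuscular fat (IMF) of castrated male Qinchuan cattle (steers) and of intact males (bulls), which asks how castration and the state of this fuel pathway go together in the fat between muscle fibres. All animals were 24 months old and were weaned at 3 months, and the steers were castrated at 6 months. By the study's methods both groups descended from 1 sire and ate the same diet, and the IMF was dissected out of the sternomandibularis, a neck muscle, so muscle fibres may come with it. Each group gave 1 mRNA library of pooled RNA, from 6 animals by the design text and from 3 by the sample labels. Each group also gave 2 miRNA libraries, each from 3 animals by the design text and from 1 by the sample labels. The pools give no values of single animals.

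In glycolysis, glucose enters through carriers of the SLC2A family, is trapped by hexokinase, and is committed by phosphofructokinase before it is split and oxidized to pyruvate. Many of these steps are catalysed by several isozymes, of which some are typical of skeletal muscle fibres and others are found in most cells. Adipocytes use glucose for the glycerol part of triglycerides and for reducing power, and they can also make glycerol phosphate from pyruvate through phosphoenolpyruvate carboxykinase (PEPCK), a route called glyceroneogenesis. Ruminant fat takes much of the carbon of its fatty acids from acetate and not from glucose. Glycogen is a large store in muscle and a small one in fat.

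The mRNA counts summed to 12677375 in steers and 9868415 in bulls. With 1 library per group, no test of castration itself was possible for mRNA. After scaling, the 2 counts of each gene were compared by an exact binomial test. A gene was called where its Benjamini-Hochberg adjusted p lay under 0.05 and its log2 fold change (log2FC) was over 1 in size. Such a call compares 2 pooled libraries, and the 95% intervals given below cover counting error only, not differences between animals. A positive log2FC means more in steers throughout. Adipocyte markers were present in both libraries, with 53660 steer counts and 50184 bull counts over 14 genes and a median log2FC of -0.05. They moved both ways, with 6 above 0 and 8 below. Skeletal muscle, macrophage and T lymphocyte markers were present as well, and their values stand beside the results for the members.

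Most members differed between the libraries by less than the fold threshold. Of the 37 members, 2 were called higher in steers, SLC2A1 and PCK1, against 4.37% of all genes with a count, and 1 was called lower, FBP2, against 8.13%. The median log2FC of the members was 0.22, against 0.01 for all genes with a count. Within 0.5 of 0 lay 25 of the 37 members, against 9165 of the 17752 genes with a count. A total of 25 members were above 0 and 12 below, against 50.7% and 49.3% of all genes. This count depends on the scaling, since 18 members and 35.8% of all genes were above 0 with total counts. The 12 matrix markers, collagens among them, made up 13.8% of the steer library and 8.31% of the bull library, with a median log2FC of 1.00 and 6 called higher in steers, and their part in the difference between scalings was not tested. The 37 members together made up 0.793% of the steer library and 0.744% of the bull library. All 3 calls were lost when a biological coefficient of variation of 0.4 was assumed, and they held at 0.2.

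**Figure D1:**
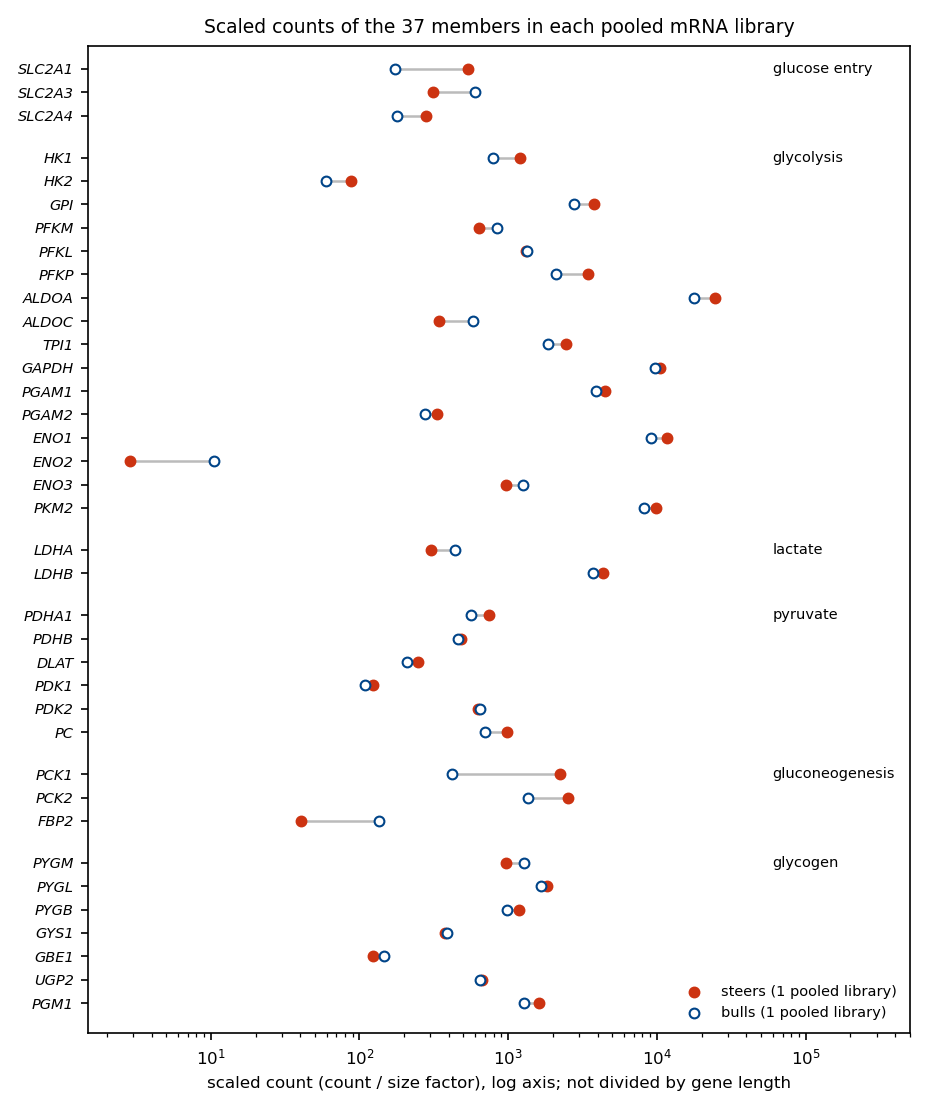
Scaled count (deposited count divided by the library's size factor, log axis) of each of the 37 members in the steer library (filled points) and the bull library (open points), grouped by step of the pathway. Each point is 1 pooled library, so there is no error bar. The widest gaps among members with over 100 counts in both libraries are those of PCK1 (2337 and 402 counts) and SLC2A1 (557 and 167 counts), and levels cannot be compared between genes because counts were not divided by gene length.

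The 3 glucose carriers lay on both sides of 0, and 1 of them was called. SLC2A1, the carrier for basal uptake (GLUT1), had 557 steer counts and 167 bull counts, which is a log2FC of 1.62 (95% interval 1.36 to 1.87), or 3.06-fold more. SLC2A3 (GLUT3), a high-affinity carrier known from neurons and white blood cells, had 327 steer counts and 572 bull counts, with a log2FC of -0.93 (-1.13 to -0.73), which was not called (with total counts it was, at -1.17). SLC2A4 (GLUT4), the insulin-responsive carrier of muscle and fat, had 291 steer and 172 bull counts and a log2FC of 0.64 (0.36 to 0.92), also not called. The summed counts of the 3 carriers were closer to each other than those of any single carrier, at 1175 and 911, with a log2FC of 0.24. Within that sum, SLC2A1 made up 47.4% in steers and 18.3% in bulls, whereas SLC2A3 made up 27.8% and 62.8%. For each 100 SLC2A1 counts there were 52.2 SLC2A4 counts in the steer library and 103 in the bull library, an odds ratio of 0.508 (0.390 to 0.661). Such an odds ratio between the 2 libraries needs no scaling factor.

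Markers of other cells differed between the libraries, some in the direction of a carrier and some against it. The 12 myeloid markers had 20983 steer counts and 44571 bull counts, with a median log2FC of -1.75, 10 of them called lower in steers and none at 0. The 10 T lymphocyte markers had 160 steer and 972 bull counts, with a median of -3.16, 9 called lower and 1 at 0 in steers, CD3G (34 counts in bulls), which is named for that 0 after its values were seen. These lists were lower in the same direction as SLC2A3, and their part in its value was not tested. SLC2A1 is also known from the sheath around nerves, from blood vessels and, in some species, from red cells. Whether red cells of cattle carry it was not examined. The 5 erythroid markers with a count, of 7 in the table, had 46 steer counts and 8 bull counts. Of them 4 were above 0 and 1 below, and 1 was called, the haemoglobin gene HBB, with 21 and 1. The 8 nerve markers with a count, of 9, had 2131 steer and 1448 bull counts, with a median of 0.92 and 3 called higher in steers. Both lists were higher in the same direction as SLC2A1, and their part in its value was not tested. The nerve list went the other way from SLC2A3. The 10 endothelial markers had 10829 steer and 10330 bull counts and no call. Their median was -0.17, the other way from SLC2A1, with 3 above 0 and 7 below. Against the summed adipocyte markers, SLC2A1 was 3.12-fold higher in steers (odds ratio, 2.62 to 3.73) and SLC2A4 was 1.58-fold higher (1.31 to 1.92).

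Most general isozymes of glycolysis lay above 0. Of the 16 members that carry glucose to pyruvate, 0 were called, against 12.5% of all genes called either way, which for so few genes says little. Their median log2FC was 0.26, and their summed counts were 79143 in steers and 58038 in bulls. For the 13 of these that are not muscle-type, the median was 0.37. By the adjusted p alone, without the fold threshold, 19 of all 37 members were higher in steers and 7 lower, against 19.9% and 18.3% of all genes. This split turned with the scaling. With total counts 11 members were higher and 13 lower, against 10.5% and 30.2% of all genes, and GAPDH and PFKL were among the lower ones. Passing by the adjusted p alone also depends on depth. With the main scaling GAPDH passed at a log2FC of 0.11, with 10910 steer and 9257 bull counts. Of the 17752 genes tested, 14043 had at least 10 counts in either library, so these shares do not compare genes of like depth.

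At the entry of glycolysis, hexokinase HK1, the general form, had 1253 steer counts and 757 bull counts, a log2FC of 0.60. HK2, the insulin-regulated form of muscle and fat, had 91 steer and 57 bull counts and a log2FC of 0.55 (0.06 to 1.06). The odds ratio of HK2 against HK1 was 0.965, with a wide interval that holds 1 (0.676 to 1.39). Glucose-6-phosphate isomerase, GPI, had 3929 steer and 2649 bull counts and a log2FC of 0.45. Phosphofructokinase has 3 genes, and they differed from each other. The platelet form PFKP had 3573 steer counts and 2024 bull counts (0.70), the liver form PFKL had 1380 and 1285 (-0.02), and the muscle form PFKM had 668 and 802 (-0.39).

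In the middle and lower part of the pathway the broadly expressed enzymes were also a little above 0. Aldolase ALDOA, the form of muscle that most other cells express too, had the most counts of all members, with 25798 in steers and 17029 in bulls and a log2FC of 0.48. Its relative ALDOC, known from brain, went the other way with 360 and 560 counts (-0.76). The odds ratio of ALDOC against ALDOA was 0.424 (0.370 to 0.486). Triosephosphate isomerase TPI1 had 2571 steer and 1781 bull counts (0.41). GAPDH, the dehydrogenase that is often used as a reference gene, had 10910 steer and 9257 bull counts, and its log2FC of 0.11 became -0.12 with total counts. Phosphoglycerate mutase PGAM1 had 4670 steer and 3762 bull counts (0.19, and -0.049 with total counts).

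Enolase and pyruvate kinase close the pathway. The general enolase ENO1 had 12247 steer counts and 8736 bull counts (0.37), and PKM2 had 10336 and 7849 (0.27). The neuronal enolase ENO2 had 3 steer and 10 bull counts only, so that its log2FC of -1.86 had an interval of -4.36 to 0.10 and was not called. At this depth a difference in ENO2 was not detectable.

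Of the muscle-type isozymes, most lay on the other side of 0. These are PFKM, PGAM2, ENO3, FBP2 and PYGM, the forms that mature muscle fibres use for phosphofructokinase, phosphoglycerate mutase, enolase, fructose bisphosphatase and glycogen phosphorylase. Their median log2FC was -0.39, and 4 of the 5 were below 0, while the other 32 members had a median of 0.25 and 24 above 0. With total counts the medians were -0.63 and 0.01. The summed counts of the 5 were 3065 in steers and 3639 in bulls, a log2FC of -0.37 (-0.44 to -0.30). Of the 5, FBP2 alone was called.

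**Figure D2:**
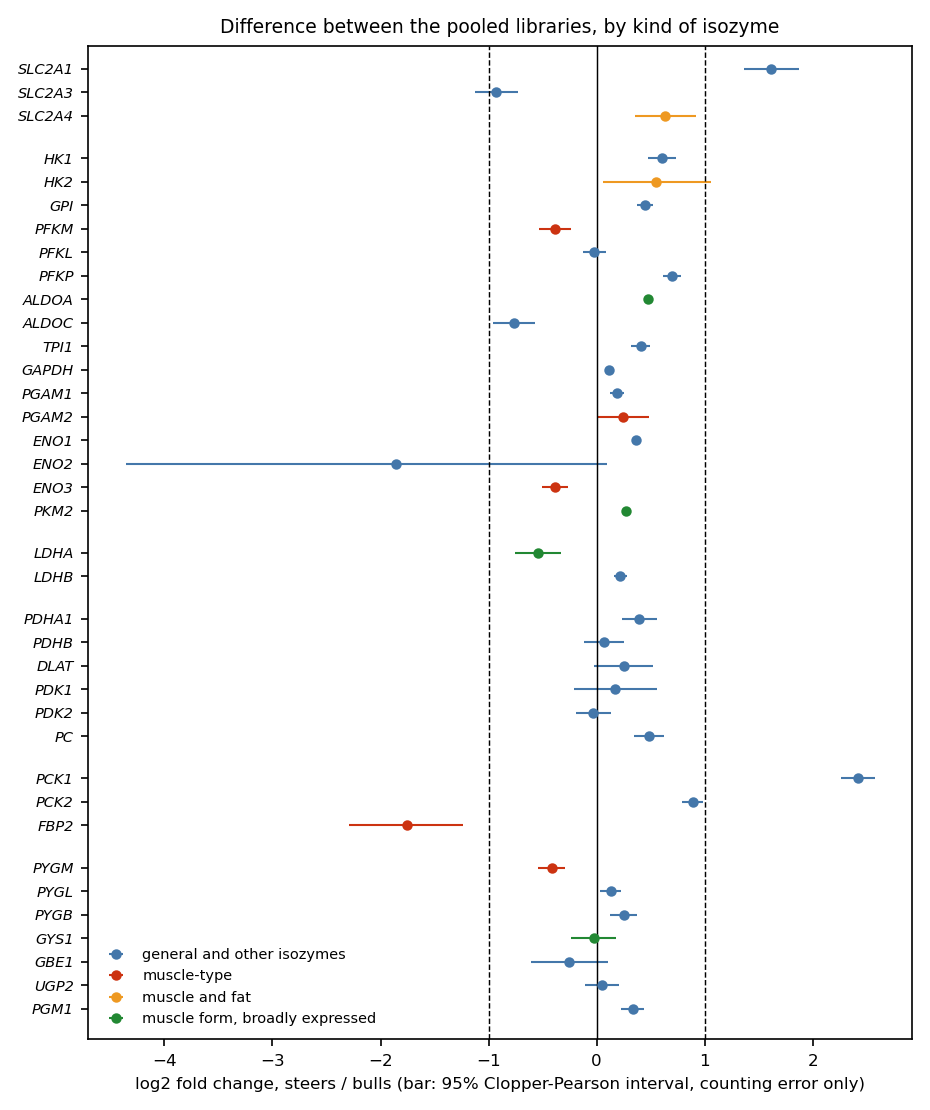
log2FC of each member (x axis, steers over bulls) with its 95% Clopper-Pearson interval from counting error, coloured by kind of isozyme, with dashed lines at the threshold of 1. PFKM, ENO3 and PYGM lie close together between -0.42 and -0.39, FBP2 lies at -1.75, PGAM2 at 0.25, and most general isozymes lie between 0 and 0.70.

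ENO3 had 1010 steer counts and 1214 bull counts, and PYGM had 1001 and 1227, so that with PFKM 3 of the 5 muscle-type genes had log2FC values of -0.39, -0.42 and -0.39. PGAM2 did not follow them, with 344 and 266 counts and a log2FC of 0.25 (0.01 to 0.49). The share of the muscle form within its own reaction showed the same split. PFKM made up 11.9% of phosphofructokinase counts in steers and 19.5% in bulls, ENO3 made up 7.62% and 12.2% of enolase counts, and PYGM made up 24.2% and 32.5% of glycogen phosphorylase counts. PGAM2 made up 6.86% and 6.60% of phosphoglycerate mutase counts.

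The odds ratios between forms, which need no scaling factor, gave the size of these shifts. PFKM was lower in steers relative to PFKP by an odds ratio of 0.472 (0.419 to 0.531) and relative to PFKL by 0.776 (0.681 to 0.883). For ENO3 against ENO1 the ratio was 0.593 (0.543 to 0.649). PYGM was lower against PYGL (0.684, 0.614 to 0.762) and against PYGB (0.630, 0.558 to 0.711). For PGAM2 against PGAM1 it was 1.04 (0.880 to 1.23), an interval that holds 1.

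**Figure D3:**
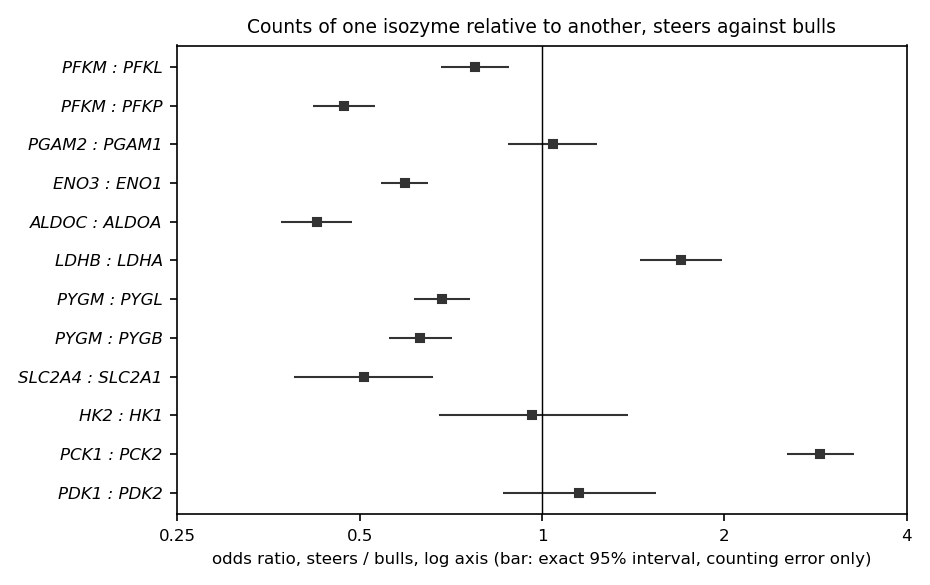
Odds ratio of the counts of one isozyme to those of another in the steer library against the bull library (log axis), with its exact 95% interval from counting error. PFKM, ENO3 and PYGM sit below 1 against each general form, PGAM2 against PGAM1 and HK2 against HK1 include 1, and PCK1 against PCK2 is highest at 2.88.

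Skeletal muscle markers differed by fibre type, and the odds ratio of the slow against the fast list was 0.301 (0.289 to 0.313). The 13 fast-fibre genes had 15007 steer counts and 13427 bull counts, a median log2FC of 0.11, with 2 called higher and none lower. They were spread from -0.89 to 2.31, with 8 above 0 and 5 below, and the median became -0.13 with total counts. Fast myosin MYH2 had 5396 steer and 4929 bull counts (0.01), and the fast calcium pump ATP2A1 had 1990 and 2241 (-0.29). The 9 slow-fibre genes had 4938 steer and 14671 bull counts, a median of -2.23 and 8 called lower, with slow myosin MYH7 at 675 and 2906 counts (-2.23). The 13 genes of both fibre types had 31788 steer and 51824 bull counts, a median of -0.97 and 6 called lower, with skeletal actin ACTA1 at 13852 and 19910 counts (-0.65). No marker in these 3 lists was at 0 in either library. In pooled tissue, fewer muscle fibres and less RNA per fibre cannot be told apart.

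The values of PFKM, ENO3, PYGM and PGAM2 lay within the spread of the fast-fibre genes. That spread, -0.89 to 2.31, is wide and also holds general members such as PFKP (0.70) and GPI (0.45). PFKM, ENO3 and PYGM lay within the spread of the genes of both fibre types as well (-2.50 to -0.18). Lying within these spreads therefore does not tie the enzymes to a fibre type. For each 100 counts of the fast list, the 5 summed genes had 20.4 counts in steers and 27.1 in bulls, an odds ratio of 0.754 (0.714 to 0.795). Against the slow list the odds ratio was 2.50 (2.36 to 2.65), and against the genes of both types it was 1.37 (1.31 to 1.44). PFKM, ENO3 and PYGM each had an odds ratio of 0.745, 0.744 and 0.730 against the fast list, while PGAM2 had 1.16 (0.981 to 1.37). FBP2 differed from these. Its odds ratio was 0.289 (0.199 to 0.413) against the fast list and 0.960 (0.660 to 1.37) against the slow list. The part of muscle RNA in the values of these enzymes was not tested, and these ratios to marker lists were chosen after the counts had been seen.

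**Figure D4:**
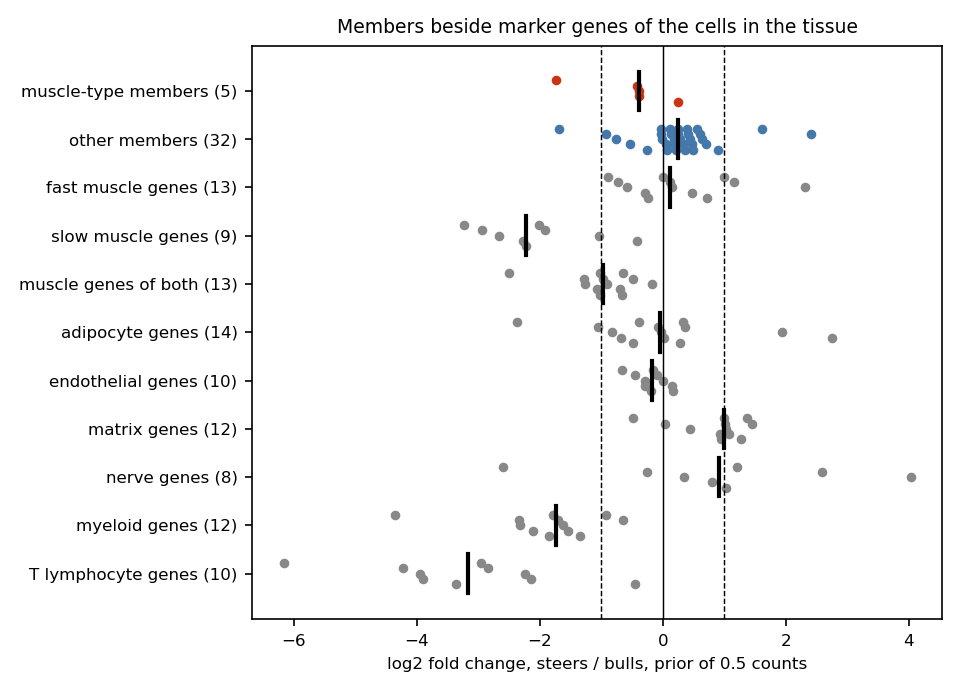
log2FC (steers over bulls, prior of 0.5 counts) of the 5 muscle-type members, the other 32 members and the genes of 9 marker lists, 1 point per gene, with a bar at each median and the number of genes in brackets. The median of the muscle-type members is -0.39. It lies between those of the fast-fibre genes (0.11, or -0.13 with total counts) and the genes of both fibre types (-0.97). The spread of the fast-fibre genes holds 4 of the 5 muscle-type members, but also general members such as PFKP and GPI. The medians of the slow-fibre (-2.23), myeloid (-1.75) and T lymphocyte (-3.16) genes lie far lower. The genes themselves overlap, since these lists reach up to -0.43, -0.64 and -0.46, and the muscle-type FBP2 lies at -1.74.

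Muscle RNA could also be followed in the 4 miRNA libraries, which held 6556511 to 10452582 counts each and are the only replicated measure in the series. Skeletal muscle makes a small set of miRNAs of its own, the myomiRs, which fall into families by the seed, the bases that pair with targets. The mature sequences are shown so that the members of each family can be recognized, with the seed, bases 2 to 8, in capitals.
miR-1: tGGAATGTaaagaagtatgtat
miR-206: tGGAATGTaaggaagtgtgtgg
miR-133a: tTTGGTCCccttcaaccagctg
miR-133b: tTTGGTCCccttcaaccagcta
miR-208b: aTAAGACGaacaaaaggtttgt
miR-499: tTAAGACTtgcagtgatgttt
miR-1 and miR-206 share 1 seed, and miR-133a and miR-133b share another. miR-208b and miR-499 come from introns of slow myosin genes.

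In CPM, the count scaled to a common library size with TMM factors, miR-499 was at 20.1 and 20.2 in the 2 steer libraries and at 75.9 and 61.1 in the 2 bull libraries. Both steer libraries lay below both bull libraries, as they did for 31.5% of all fitted sequences, and the log2FC was -1.76 (SE 0.47, edgeR quasi-likelihood adjusted p = 0.00432, 9.55e-05 to 0.458 over the alternatives). miR-1 was at 20.3 and 18.7 CPM in steers and at 57.1 and 47.3 in bulls, again without overlap, and its log2FC was -1.42 (SE 0.48, edgeR adjusted p = 0.0279, 0.00216 to 0.585 over the alternatives). Both were called lower in steers, as were 7.08% of the 1073 sequences fitted. Both calls were lost when either steer library was left out, which gave log2FC values of -1.71 and -1.73 for miR-499 and -1.43 and -1.33 for miR-1. The call of miR-1 was also lost without the first bull library (-1.09).

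The other muscle miRNAs were not called. miR-208b was at 91.5 and 119 CPM in steers and at 235 and 198 in bulls, with a log2FC of -1.04 (SE 0.48, edgeR adjusted p = 0.136, 0.0327 to 0.769 over the alternatives). miR-133a was at 2020 and 3126 CPM in steers and at 5345 and 4986 in bulls, with a log2FC of -1.01 (SE 0.47, edgeR adjusted p = 0.145, 0.0209 to 0.837 over the alternatives). For miR-206, the myomiR of skeletal muscle that slow and regenerating fibres are known for, the groups overlapped at 24.8 and 53.9 against 65.5 and 49.0 CPM. The log2FC values of miR-133b and miR-133c were -0.74 and -0.93. Both steer libraries lay below both bull libraries for each, as they did for 31.5% of all fitted sequences. Together the muscle miRNAs made up 0.165% and 0.327% of the raw counts of the steer libraries and 0.568% and 0.769% of those of the bull libraries. These shares used no TMM factors, and they did not overlap between the 2 groups. Most of the summed counts were those of miR-133a, which was not called. It gave 15741 of 17233 and 26774 of 28974 in the steer libraries, and 40409 of 44246 and 46507 of 50399 in the bull libraries.

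**Figure D5:**
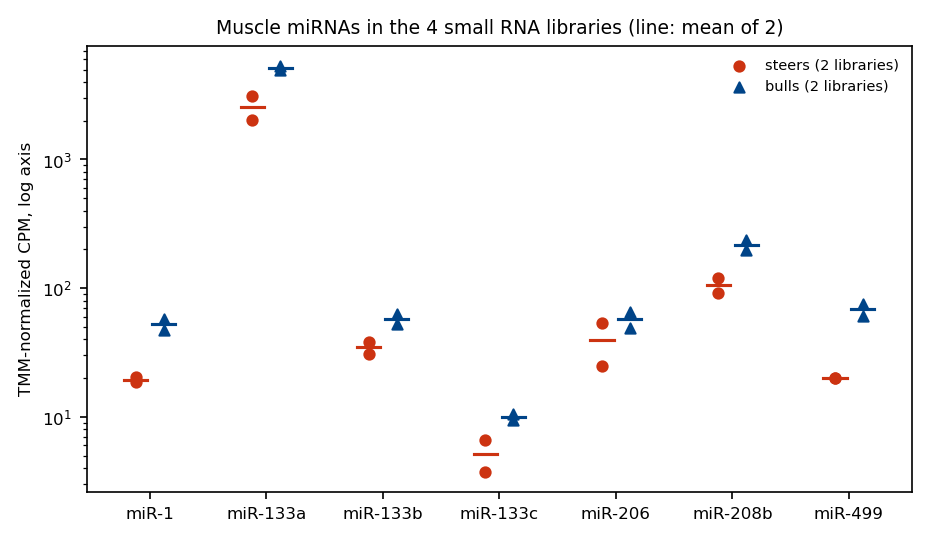
TMM-normalized CPM (log axis) of 7 muscle miRNAs in each of the 2 steer libraries (circles) and 2 bull libraries (triangles), with a line at each mean of 2. The steer points lie below the bull points for every miRNA drawn except miR-206, whose second steer library (53.9) lies above the second bull library (49.0). Of all fitted sequences, 31.5% had both steer libraries below both bull libraries.

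Below pyruvate, the 2 forms of lactate dehydrogenase lay on opposite sides of 0, and neither was called. LDHA, the form that favours lactate production and is abundant in fast muscle, had 316 steer counts and 422 bull counts, a log2FC of -0.54. LDHB, the heart form, had 4524 steer and 3565 bull counts and a log2FC of 0.22, which became -0.018 with total counts. The odds ratio of LDHB against LDHA was 1.69 (1.45 to 1.98), and LDHB made up 93.5% of the pair in steers and 89.4% in bulls.

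The pyruvate dehydrogenase complex, which turns pyruvate into acetyl-CoA, had none of its few genes called, against 12.5% of all genes. Its E1 subunits PDHA1 and PDHB had 772 and 506 steer counts and 539 and 443 bull counts, with log2FC values of 0.40 and 0.07. Its E2 subunit DLAT had 259 steer and 200 bull counts (0.25). The kinases PDK1 and PDK2, which switch the complex off, had 129 against 105 counts and 657 against 616 counts, with log2FC values of 0.17 and -0.03. With total counts PDHB was at -0.17 and PDK1 at -0.064. Another kinase of the family, PDK4, which is no member of the list and is known to respond to fasting and fatty acids, was called lower in steers with 2495 counts against 6424 and a log2FC of -1.49 (-1.55 to -1.42). Pyruvate carboxylase PC, which makes oxaloacetate from pyruvate, had 1024 steer and 672 bull counts and a log2FC of 0.49.

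The difference of greatest size among the members was that of PCK1. PCK1, the cytosolic PEPCK that starts glyceroneogenesis in fat and gluconeogenesis in liver, had 2337 steer counts and 402 bull counts, a log2FC of 2.42 (2.26 to 2.57), or 5.34-fold more. The mitochondrial form PCK2 had 2616 steer and 1297 bull counts and a log2FC of 0.89 (0.79 to 0.99), just under the fold threshold. The odds ratio of PCK1 against PCK2 was 2.88 (2.54 to 3.27), and PCK1 made up 47.2% of the pair in steers and 23.7% in bulls. Against the summed adipocyte markers PCK1 was 5.44-fold higher in steers (odds ratio, 4.89 to 6.06). Of the 14 adipocyte markers with a count, 2 were called higher in steers, at log2FC values up to 2.75, and 1 lower, FABP4 (-1.06). The markers thus moved both ways, and their near-even sum is not a steady level of each.

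FBP2, the muscle form of fructose bisphosphatase, which reverses the phosphofructokinase step, had 42 steer counts and 130 bull counts. Its log2FC was -1.75 (-2.29 to -1.24), so it was 3.37-fold lower in steers. FBP1, the liver form, which is no member, had 562 steer and 702 bull counts (-0.44), and the odds ratio of FBP2 against FBP1 was 0.404 (0.273 to 0.587).

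The 7 glycogen genes had log2FC values between -0.42 and 0.33, with a median of 0.05. None was called, against 12.5% of all genes, which for 7 genes says little. Their summed counts were 7027 in steers and 6119 in bulls. Glycogen phosphorylase releases glucose phosphate from glycogen. Its liver form PYGL had 1908 steer and 1599 bull counts (0.13, and -0.11 with total counts) and its brain form PYGB had 1224 and 945 (0.25). Together with the muscle form PYGM the 3 genes summed to a log2FC of 0.01 (-0.05 to 0.07), with PYGM below 0 and the other forms above it. Glycogen synthase GYS1 had 395 steer and 370 bull counts (-0.03), and the branching enzyme GBE1 had 129 and 141 (-0.25). UGP2, which makes the UDP-glucose that glycogen synthase uses, had 698 steer and 619 bull counts (0.05, and -0.19 with total counts), and phosphoglucomutase PGM1 had 1672 and 1218 (0.33).

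The wider pathway was taken from 5 lists of 77 other genes, of which 75 had a count, 3 were called higher in steers and 5 lower. These shares are near the 4.37% and 8.13% of all genes, so the calls describe single genes and not the pathway. Of the 13 other sugar and monocarboxylate carriers with a count, 2 were called higher. These were SLC2A10, a carrier of the GLUT family, with 145 counts against 52 (log2FC 1.36, 0.89 to 1.84), and BSG (basigin), the partner protein that lactate carriers need to reach the membrane, with 13770 against 6040 (1.07, 1.02 to 1.11). The call of BSG was lost with total counts, at 0.83.

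Of the 18 other genes of glycolysis and gluconeogenesis, 1 was called higher and 2 lower. PFKFB3, which makes the activator of phosphofructokinase, had 506 steer counts and 1764 bull counts, a log2FC of -1.92 (-2.07 to -1.78). HK3, a hexokinase known from white blood cells, had 3 steer and 44 bull counts, a log2FC of -4.00 (-6.33 to -2.36). Both were lower in the same direction as the myeloid markers, whose median was -1.75, and the part of those cells was not tested. The gene called higher was GAPDHS, the form of GAPDH known from sperm, with 52 steer counts and 0 bull counts, which is at least 15.9-fold higher against a floor of 3 counts in the bull library.

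Of the 21 other glycogen genes, 0 were called higher and 2 lower, which is near the shares of all genes. These were PPP1R3B, with 105 and 257 counts (-1.41), and PPP1R3A, with 9 and 27 counts (-1.71), which bring a phosphatase to glycogen in liver and in muscle. Of the 6 other genes of the pyruvate dehydrogenase group, PDK4 alone was called. None of the 17 regulators was called. The glucose-responsive gene TXNIP, which limits glucose uptake, had 39099 steer counts and 46860 bull counts, a log2FC of -0.38 (-0.40 to -0.36). The kinase AKT2, which relays the insulin signal to SLC2A4, had 1440 steer and 1296 bull counts (0.03). Of the 8 calls in these lists, an assumed biological coefficient of variation of 0.4 ended all but that of GAPDHS, and one of 0.2 ended those of SLC2A10, BSG and PPP1R3A.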

How the data were processed

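For each of steers and bulls, 1 pooled mRNA library and 2 miRNA libraries of IMF were analysed, with groups taken from the labelled treatment. The deposited values of both kinds are raw counts made by the authors without normalization. By the study's methods, mRNA reads were aligned to a bovine genome with MapSplice and miRNA reads were aligned with BWA, while the submitters' processing notes name BWA and GRCh37.p13, a human build. How reads were assigned to genes, with or without strand, is not given in the sources used here, so reads of overlapping or near-identical genes may be shared. No coordinates are given.

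From the mRNA counts, median-of-ratios size factors (1.04 in steers, 0.959 in bulls) and a two-sided exact binomial test per gene were computed in scipy 1.17.1, with Benjamini-Hochberg adjustment over 17752 genes. Fold changes of single genes used the counts alone, and medians used a prior of 0.5 counts. A fold against a count of 0 was set against a floor of 3 counts. Intervals are Clopper-Pearson or exact conditional intervals at 95%, and since reads are not independent molecules they cover counting error only. miRNA counts were fitted in edgeR 4.0.16 under R 4.3.3 (filterByExpr, TMM, glmQLFit, glmQLFTest on group, 1073 sequences). By the study's methods each miRNA library was built from 3 animals, and by the sample labels from 1. The sources do not state which animals went into which library, so the miRNA p-values measure only the spread between these libraries. The binomial test and the edgeR fit were also run on simulated counts with 200 changed features. Those counts followed each method's own assumptions, so they checked the code and not the scaling or the spread between animals. Of the 37 symbols, 36 matched RefSeq gene symbols and 1 matched neither a symbol nor a listed synonym. miRNA sequences are those of the study's supplementary list.

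The members, the marker and pathway lists and the tests were chosen with earlier results of these data known. Every member was to be given with its values if it had at least 10 counts in either library. Of the pathway lists, called genes and the 2 with most counts of each could be named, of marker lists up to 4 genes with most counts, and of the muscle miRNAs those with at least 10 counts over the 4 libraries. The alternatives were other scalings, a count filter, assumed biological coefficients of variation, no fold threshold, another prior, and for miRNA DESeq2 1.42.0, other size factors, no filter, known miRNAs alone, the replicate number as a block and each library left out. EBSeq, which the study used, was not used.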

Additional observations from a re-analysis of the deposited data

How the results depend on the processing

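The calls of SLC2A1, PCK1 and FBP2 held under every alternative scaling, the count filter and assumed biological coefficients of variation of 0.1 and 0.2. At an assumed coefficient of 0.4, 0 members were called higher and 0 lower, and how far animals vary cannot be read from 1 library per group. Without the fold threshold, 19 members were higher in steers and 7 lower, and with total counts as well, a combination chosen after seeing the data, 11 were higher and 13 lower. Total counts moved the median log2FC over all genes to -0.23 and the share of higher calls among all calls from 35.0% to 21.2%. Under it 2 members were called lower, FBP2 and SLC2A3 (-1.17), the median of the muscle-type members was -0.63, and the sign turned for GAPDH (-0.12), PGAM1 (-0.049), LDHB (-0.018), PDHB (-0.17), PDK1 (-0.064), PYGL (-0.11) and UGP2 (-0.19). PFKL turned to 0.0048 when scaled by the adipocyte genes. The odds ratios between isozymes kept their direction with 0.5 added to each count.

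Of the muscle miRNAs, 2 were called lower in steers, and 1 was without the filter on low counts. Leaving out each library in turn gave 0 to 2, with 0 without either steer library, where the lone library is assumed to vary like the other group. With the replicate number as a block 4 were called, miR-208b and miR-133a in addition, but the labels do not say what a number shares, and same-numbered libraries deviated together with a correlation of 0.304 over 1073 sequences in 2 pairs only. No paired analysis of mRNA was possible because each group has 1 library, and none was left out for the same reason. Depth limits ENO2, HK3 and PPP1R3A, with 3 to 44 counts per library, and other genes with as few counts.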

Other observations

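GAPDHS was the only one of the called pathway genes with a count of 0 in a library. Counts were also assigned to other genes of isozymes known from testis, and these genes were picked here after their values had been seen. For PGK2 there were 342 steer and 221 bull counts, and how reads it shares with PGK1, of which it is an intronless copy, were counted is not given in the sources used here. For LDHC there were 2 steer counts and 0 bull counts, both under the floor of 3 counts.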
